A study of Mus musculus with 9 samples.

Results

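The 10 genes described here are markers of homeostatic microglia, the resident immune cells of the unperturbed brain: Cx3cr1, P2ry12, P2ry13, Gpr34, Csf1r, Siglech, Fcrls, Tmem119, Olfml3 and Sall1. They were taken by symbol from the 21853 genes of the deposited tables, all 10 were present, and all 10 passed the filter on low values that left 15411 genes for testing. In brain of Huntington's disease (HD) mice given a control virus, 9 of the 10 were lower than in wild-type (WT) brain, where 45.1% of all tested genes changed and 20.7% were lower, and P2ry13 was lower in every library without passing the test. In HD brain given a WNT5B virus, where 77.5% of all tested genes differed from HD brain with the control virus, the members parted. The mean of Cx3cr1 was 33.9 times, and that of Siglech 6.85 times, that in HD brain with the control virus. Olfml3, Tmem119 and P2ry12 rose, with means 1.31 to 2.44 times those of that group, and lost the call in 1, 2 and 14 of 21 other settings, in this order. Fcrls, Gpr34, Sall1 and Csf1r were not called, and P2ry13 was at or near 0 in 2 of 3 libraries.

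Libraries of poly(A) RNA, 9 in all and 3 per group, were made from mouse brain. The HD-WNT5B group consists of HD mice of the N171-82Q line, which carry, behind the prion protein promoter, a transgene for an N-terminal huntingtin fragment with an expanded glutamine tract, given an AAV with WNT5B and mCherry joined by a P2A peptide behind a GFAP promoter. The HD-Control group consists of the same mouse line given an AAV with mCherry and no WNT5B behind the same promoter, and the WT-Control group of wild-type mice given that control AAV. The GFAP promoter is active mainly in astrocytes, so the vector was not aimed at microglia. All 3 groups thus carry a virus and mCherry. The series text places the WNT5B injection in the striatum, the labels give the tissue as brain, and the labels state neither age, sex nor whether each library is 1 animal. The p-values below therefore measure only the spread between these libraries, which may be technical.

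Microglia enter the brain early in development and keep themselves there by division. Their homeostatic state depends on signals from neighbouring cells: CSF1 and IL-34 act through the receptor CSF1R, TGF-beta holds the resident programme in place through SMAD proteins, and neuronal fractalkine (CX3CL1) acts through CX3CR1. Homeostatic microglia probe the tissue with motile processes that follow ATP and ADP through purinergic receptors such as P2RY12. When microglia respond to injury, amyloid or neurodegeneration, these genes are commonly lowered while a disease-associated set led by Apoe and Trem2 is raised. In bulk tissue, fewer cells of a type and less RNA per cell cannot be told apart, which holds for every value below.

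In mm10 with GENCODE M21, Cx3cr1 (ENSMUSG00000052336.7) lies at chr9:119901616-120069879 on the minus strand, a span that also holds Wdr48, Gorasp1, Ttc21a, Csrnp1 and Xirp1, and 1.73% of its exon bases are shared with the antisense gene Gm33858. P2ry12 at chr3:59216272-59262871 and P2ry13 at chr3:59207892-59210882, both on the minus strand, are neighbours inside Med12l, which runs the other way and shares 9 exon bases with P2ry12. Fcrls at chr3:87250758-87263738 and Olfml3 at chr3:103722222-103738001 are on the same chromosome and strand. Tmem119 is at chr5:113793729-113800516 on the minus strand, Siglech at chr7:55768178-55778925 on the plus strand and Sall1 at chr8:89027235-89044162 on the minus strand. Gpr34 at chrX:13632089-13640858, plus strand, lies within Cask, which is read in the other direction. The library kit does not keep the strand, so reads in shared bases cannot be assigned. Med12l fell by 1.18 on the log2 scale in HD-WNT5B against HD-Control (limma, adjusted p = 9.5e-07).

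Start-site windows from RefSeq (mm10, 250 bases before to 50 after the start) were present for 7 of the 10 members. Those of 4 members are shown because these genes took the most different courses: Cx3cr1 and Siglech were the highest above HD-Control in HD-WNT5B, P2ry13 was the furthest below it, and Fcrls was the furthest below WT-Control in HD-Control. Each is written 5′ to 3′ on the strand of the gene, and capitals mark GAGGAA or its reverse complement, the core of the PU box that the myeloid factor PU.1 (Spi1) binds.
Cx3cr1, chr9:120068247-120068546 (minus strand): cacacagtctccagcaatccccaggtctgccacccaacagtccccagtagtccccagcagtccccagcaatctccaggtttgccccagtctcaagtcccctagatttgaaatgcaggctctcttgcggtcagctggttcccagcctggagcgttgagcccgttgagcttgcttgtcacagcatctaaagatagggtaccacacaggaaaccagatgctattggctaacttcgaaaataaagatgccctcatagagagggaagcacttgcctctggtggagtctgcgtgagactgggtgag
Siglech, chr7:55767934-55768233 (plus strand): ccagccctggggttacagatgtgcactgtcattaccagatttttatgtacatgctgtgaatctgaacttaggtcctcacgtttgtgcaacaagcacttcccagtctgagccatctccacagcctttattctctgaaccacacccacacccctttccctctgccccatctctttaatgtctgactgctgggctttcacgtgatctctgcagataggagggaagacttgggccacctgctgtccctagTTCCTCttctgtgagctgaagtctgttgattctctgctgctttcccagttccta
Fcrls, chr3:87263475-87263774 (minus strand): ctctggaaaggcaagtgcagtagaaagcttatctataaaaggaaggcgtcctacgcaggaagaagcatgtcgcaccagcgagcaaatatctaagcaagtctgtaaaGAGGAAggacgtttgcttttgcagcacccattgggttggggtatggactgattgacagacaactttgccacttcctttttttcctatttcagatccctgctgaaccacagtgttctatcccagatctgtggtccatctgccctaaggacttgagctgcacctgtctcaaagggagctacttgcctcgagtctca
P2ry13, chr3:59210833-59211132 (minus strand): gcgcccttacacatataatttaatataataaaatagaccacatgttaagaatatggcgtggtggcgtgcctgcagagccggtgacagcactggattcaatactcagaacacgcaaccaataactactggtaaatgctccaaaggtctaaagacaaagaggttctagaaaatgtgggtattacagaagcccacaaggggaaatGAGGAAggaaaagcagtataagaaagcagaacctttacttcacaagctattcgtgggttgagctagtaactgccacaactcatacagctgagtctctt
GAGGAA was searched on both strands and stood 144 bases before the start of Fcrls, 48 before that of P2ry13 and 4 before that of Siglech, where it reads on the other strand, and was not in the Cx3cr1 window. It was in the windows of 3 of 7 members, which is 3 of the 9 windows of members, and in 28.28% of all 32851 windows. TGTGGT, the core bound by RUNX factors and also searched on both strands, was in all 4 windows shown (54 bases before the start in Cx3cr1, 115 in Siglech, 41 and 18 in Fcrls, 214 in P2ry13) and in none of the other 3 members. That is 4 of the 9 windows of members, against 16.76% of all windows. Except at 18 bases in Fcrls, these matches read on the other strand and appear as accaca in the windows shown. The GC box core GGGCGG was in the windows of Olfml3 and Sall1 alone among the members (35.66% of all windows), and TATAAA in that of Fcrls alone, 217 bases before the start (13.62% of all windows). The 4 windows shown, chosen by the fold changes of their genes, thus shared the RUNX core, while the members they belong to differed in direction between HD-WNT5B and HD-Control. With several motifs searched in few windows, a link between motif and course was not tested. A match is a run of letters, not a site shown to be bound.

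Values are normalized read counts as deposited, and fold changes are log2 of the value plus 3, tested with limma over all 15411 genes with Benjamini-Hochberg adjustment. Summed values were 79.9 to 83.8 M in HD-WNT5B, 55.6 to 55.8 M in HD-Control and 54.6 to 54.7 M in WT-Control libraries. The value that 1 read stands for was 1.61 to 2.14, 0.616 to 0.797 and 0.704 to 0.808 in the same order of groups, and genes above 0 numbered 14291 to 14588, 17223 to 17349 and 17027 to 17132. The median SD of log2 values between libraries was 0.233 in HD-WNT5B, 0.0333 in HD-Control and 0.0393 in WT-Control. The main fit shares a common spread per gene over the 3 groups. Where HD-WNT5B varies more, SE and p-values are thus understated in its comparisons and overstated in HD-Control against WT-Control. A weight per group was among the 21 other settings. Against HD-Control, 77.5% of all tested genes changed in HD-WNT5B, 35.8% higher and 41.7% lower, with a median log2 change of -0.23. With every library brought to the same total, HD-WNT5B against HD-Control moved by -0.55 for all genes, and by -0.38 with upper-quartile factors. Mouse Wnt5b had 184.2, 22.5 and 212.3 in HD-WNT5B libraries 1, 2 and 3, against 63.8, 44.2 and 49.3 in HD-Control and 74.6, 63.8 and 57.7 in WT-Control (HD-WNT5B against HD-Control 0.88, SE 0.73, limma adjusted p = 0.298). Library 2 was below all control libraries. The labels do not give the species of the vector's WNT5B, so reads of the mouse gene do not check the labels, and results that turn on library 2 are given without it as well.

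Cx3cr1, the receptor for the neuronal chemokine fractalkine, had 20611, 21166 and 18043 in the HD-WNT5B libraries, against 593.9, 572.2 and 596.6 in HD-Control and 4729, 4785 and 4780 in WT-Control. All HD-WNT5B libraries were above all WT-Control libraries, and all of these above all HD-Control libraries. Cx3cr1 rose in HD-WNT5B by 5.07 on the log2 scale against HD-Control (SE 0.06, limma adjusted p = 5.2e-11) and by 2.06 against WT-Control (adjusted p = 5.9e-09). Its lowest value over 21 other settings was 4.52 against HD-Control. It was also the most even member in HD-WNT5B, with a coefficient of variation of 8.35%, where the median of the members was 20.6%.

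Siglech, a receptor of the Siglec family that signals through the adaptor DAP12 (Tyrobp), had 3520, 2992 and 2284 in HD-WNT5B, against 422.5, 443.2 and 418.0 in HD-Control and 1381.5, 1385 and 1330.4 in WT-Control. The groups did not overlap, and their order was that of Cx3cr1. Siglech rose by 2.75 against HD-Control (SE 0.14, limma adjusted p = 2.2e-07) and by 1.08 against WT-Control (adjusted p = 1.1e-04). These were the only members above WT-Control in HD-WNT5B, under the main settings and under all 21 others.

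**Figure D1:**
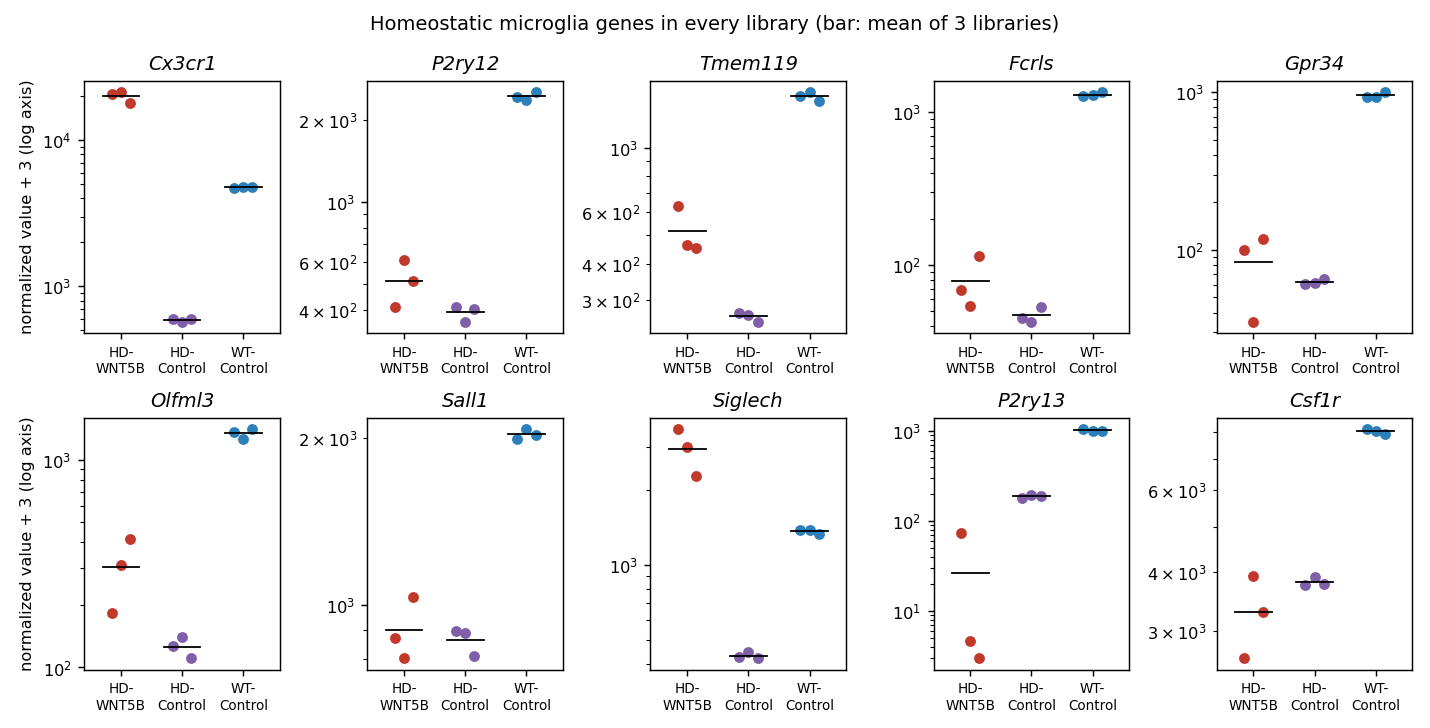
Deposited normalized value plus 3 of each member (log axis, own scale per gene) in the 3 libraries of HD-WNT5B, HD-Control and WT-Control; points are libraries and bars group means. Cx3cr1 and Siglech are highest in HD-WNT5B, P2ry13 is lowest there with 1 library at 0, and the other 7 members lie below WT-Control in both HD groups.

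Among the purinergic receptors of the set, P2ry12 and P2ry13 parted. P2ry12, the ADP receptor that steers microglial processes, had 407.8, 607.2 and 510.4 in HD-WNT5B, against 407.4, 359.8 and 401.4 in HD-Control and 2414, 2365 and 2513 in WT-Control. Its lowest HD-WNT5B library was level with the highest HD-Control libraries. P2ry12 rose by 0.37 (SE 0.14, limma adjusted p = 0.0453), but the call was lost in 14 of 21 other settings, in 2 of which the sign turned: with equal totals it was -0.19, and with upper-quartile factors -0.016. Over the 21 settings the difference ran from -0.19 to 0.75. Without HD-WNT5B library 2 it was 0.23 (adjusted p = 0.0901).

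P2ry13, another ADP receptor of the same gene cluster, had 69.8, 1.6 and 0 in HD-WNT5B, against 178.6, 190.2 and 188.4 in HD-Control and 1040, 1005 and 988 in WT-Control. Divided by the estimated value of 1 read, these HD-WNT5B values came to 39, 1 and 0 reads. P2ry13 fell by 4.24 against HD-Control (SE 1.02, limma adjusted p = 0.00463) and its difference from WT-Control was -6.66 (adjusted p = 3.1e-04), and its mean in HD-WNT5B was 2.35% of that in WT-Control. Without HD-WNT5B library 1 the fall against HD-Control was by 5.67 (adjusted p = 1.47e-07), and the difference was -3.67 without library 2 (0.0186) and -3.37 without library 3 (0.0145), so the size depended on the library while the call did not. The ratio of P2ry12 to P2ry13 was 5.85 in HD-WNT5B library 1 and 378 in library 2, against 1.89 to 2.28 in HD-Control and 2.32 to 2.54 in WT-Control.

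Gpr34, a receptor for lysophosphatidylserine, had 96.6, 32.1 and 113.7 in HD-WNT5B, against 57.4, 59.0 and 62.8 in HD-Control and 928.3, 931.9 and 992.5 in WT-Control. The HD-WNT5B libraries lay on both sides of the HD-Control libraries (0.24, 95% interval -0.70 to 1.19, limma adjusted p = 0.607). Without HD-WNT5B library 2 the difference was 0.78 (adjusted p = 7.65e-04), and without library 3 it was -0.084. Against WT-Control, Gpr34 fell by 3.68 in HD-WNT5B (adjusted p = 3.9e-05).

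Csf1r, the receptor on which microglial survival depends, had 2615, 3935 and 3287 in HD-WNT5B, against 3759, 3903 and 3776 in HD-Control and 8111, 8027 and 7929 in WT-Control. HD-WNT5B and HD-Control overlapped, and both lay below WT-Control. The gene lies at chr18:61100598-61132149 on the plus strand and shares 15.1% of its exon bases with Hmgxb3 on the other strand, which fell by 0.76 in HD-WNT5B against HD-Control (limma adjusted p = 6.6e-04). The Csf1r difference between the HD groups was -0.24 (95% interval -0.52 to 0.05, limma adjusted p = 0.11). It passed the test as a fall by 0.79 with equal totals (adjusted p = 2.35e-04), by 0.62 with upper-quartile factors and by 0.38 without HD-WNT5B library 2 (0.0047), while without library 1 it was -0.08. Against WT-Control, Csf1r fell by 1.31 in HD-WNT5B (adjusted p = 1.2e-05), to 40.9% of the WT-Control mean, and by 1.07 in HD-Control (1.8e-04), to 47.5%.

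Fcrls, a scavenger receptor related to Fc receptors that marks mouse microglia, had 66.2, 51.4 and 111.5 in HD-WNT5B, against 42.3, 39.8 and 50.5 in HD-Control and 1270, 1294 and 1346 in WT-Control. All HD-WNT5B libraries were above all HD-Control libraries, with a difference of 0.69 (95% interval 0.04 to 1.33 before adjustment, limma adjusted p = 0.0514). It passed without HD-WNT5B library 2 (0.92, adjusted p = 0.00643). The mean in HD-WNT5B was 5.86% of that in WT-Control, and that in HD-Control 3.39%, the lowest share of any member in HD-Control.

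Tmem119, a membrane protein used to tell resident microglia from other macrophages, had 629.6, 461 and 448.2 in HD-WNT5B, against 268.7, 263.2 and 249.9 in HD-Control and 1497, 1542.5 and 1445 in WT-Control. The groups did not overlap. It rose by 0.95 against HD-Control (SE 0.14, limma adjusted p = 2.9e-04) and fell by 1.55 against WT-Control (1.1e-05), to 34.3% of its mean. With the trend of values on transcript length and GC content removed per library, the difference from HD-Control was 0.18 (adjusted p = 0.328), and with a weight per group as well the adjusted p was 0.568. The deposited changes of all genes followed both properties in HD-WNT5B against HD-Control, with a Pearson r across genes of 0.27 with GC and -0.35 with log10 length, against 0.002 and -0.05 in HD-Control against WT-Control, genes not being independent replicates.

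Olfml3, a secreted olfactomedin-like protein, had 180.7, 308.4 and 411.7 in HD-WNT5B, against 124.4, 137.2 and 107.7 in HD-Control and 1362.5, 1257 and 1400.4 in WT-Control. It rose by 1.19 against HD-Control (SE 0.28, limma adjusted p = 0.00378), to 2.44 times its mean, and fell by 2.22 against WT-Control (8.0e-05). With equal totals the difference from HD-Control was 0.65 (adjusted p = 0.0598).

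Sall1, a zinc finger transcription factor that keeps the microglial programme, had 867.5, 798.3 and 1029.3 in HD-WNT5B, against 892.9, 888.5 and 805.9 in HD-Control and 1987.5, 2069 and 2016 in WT-Control. HD-WNT5B and HD-Control overlapped (0.05, 95% interval -0.18 to 0.29, limma adjusted p = 0.657). The value depended on the scale: it was -0.50 with equal totals (adjusted p = 0.00307), -0.33 with upper-quartile factors (0.0215) and 0.41 with the length and GC trend removed (0.00772). Against WT-Control, Sall1 fell by 1.18 in HD-WNT5B (7.1e-06), to 44.4% of the mean, and by 1.23 in HD-Control (3.1e-05), to 42.6%.

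Counted together, 5 members rose and 1 fell in HD-WNT5B against HD-Control, and 4 were not called. Their median log2 change was 0.53, beside -0.23 for all tested genes, 77.5% of which changed. The groups did not overlap for 7 of the 10 members and for 78.7% of all tested genes, so neither the share of members called nor that without overlap stood above the share over all genes. With equal totals 3 rose and 3 fell, and with upper-quartile factors 4 rose and 3 fell, Csf1r and Sall1 joining P2ry13 among those that fell, so the balance of directions rested on the scale. Without HD-WNT5B library 2, 6 rose and 2 fell. Cx3cr1 and Siglech rose and P2ry13 fell in all 21 settings.

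Against WT-Control, 2 members rose and 8 fell in HD-WNT5B, where 77.9% of all genes changed, 35.9% higher and 42.1% lower. The members' median was -1.89, and that of all genes -0.25. These counts were the same in all 21 other settings. P2ry12 fell by 2.27 and Fcrls by 4.11 (limma adjusted p = 8.6e-07 and 1.4e-06), so the members with a higher level than in HD-Control remained below WT-Control, apart from Cx3cr1 and Siglech.

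In HD-Control against WT-Control, 9 members fell, where 20.7% of all genes fell and 24.5% rose. In a fit of the 6 libraries compared, all 10 members fell, where 40.2% of all genes fell and 43.5% rose. All 10 were lower without overlap, as were 40.4% of all genes, while 43.6% were higher without overlap. The median was -2.57, beside 0.02 for all genes, and the range was -4.80 for Fcrls to -1.07 for Csf1r. Siglech fell by 1.67 (limma adjusted p = 3.4e-05), to 31.3% of its mean in WT-Control. P2ry13, at 18.4% of its WT-Control mean, gave -2.43 (SE 1.02, adjusted p = 0.0863). The shared estimate of spread includes the HD-WNT5B libraries, and in the fit of 6 libraries its adjusted p was 1.98e-18. HD-Control serves in this comparison and in that of HD-WNT5B with HD-Control, so low HD-Control values enter both with opposite sign, and the changes in them are not independent.

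**Figure D2:**
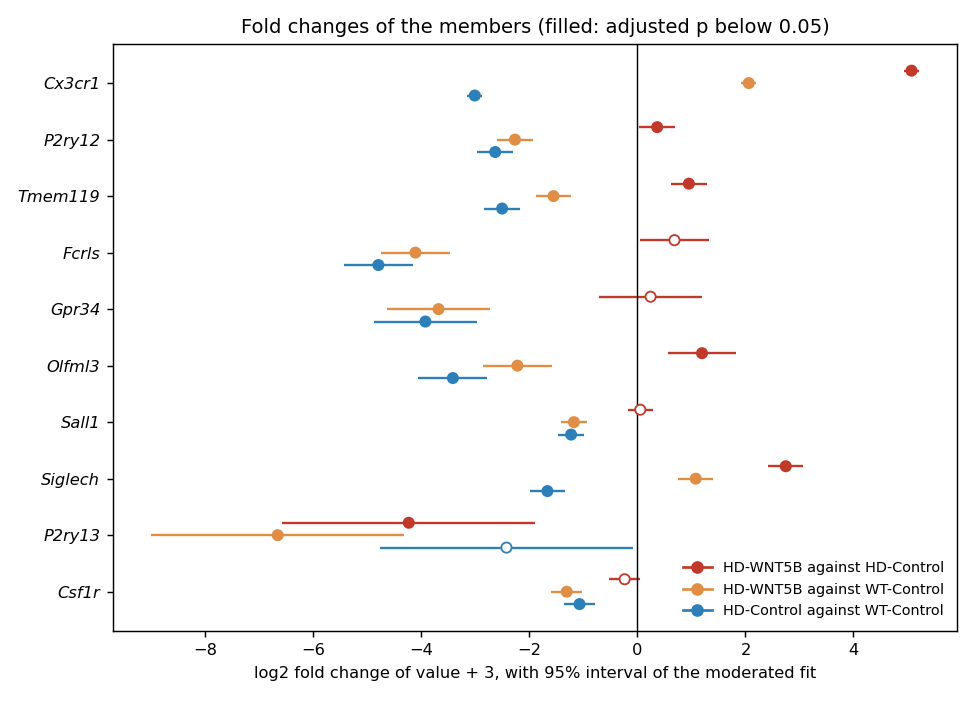
Log2 fold change of the value plus 3 for each member in HD-WNT5B against HD-Control (red), HD-WNT5B against WT-Control (orange) and HD-Control against WT-Control (blue), with 95% intervals of the moderated fit; filled points passed an adjusted p of 0.05. Orange points are right of 0 for Cx3cr1 and Siglech only, and the intervals of P2ry13 are the widest, with an SE of 1.02.

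The members changed their order of abundance between groups. Per kb of transcript, Cx3cr1 led in HD-WNT5B with 4438 ± 371 (SD, n = 3), ahead of Siglech with 1274 ± 270 and Csf1r with 698 ± 140.4. In HD-Control, Csf1r led with 811 ± 16.7, ahead of Siglech with 186 ± 5.83, P2ry12 with 166, Sall1 with 164 ± 9.31 and Cx3cr1 with 131 ± 2.98. In WT-Control, Csf1r led with 1707 ± 19.4, followed by Cx3cr1 with 1060.5 ± 6.84 and P2ry12 with 1037, whose libraries overlapped. At the low end stood P2ry13 in HD-WNT5B with 9.41 ± 15.8, Fcrls in HD-Control with 19.4 ± 2.46 and Olfml3 in WT-Control with 245 ± 13.6. Neighbours overlapped in HD-WNT5B from Tmem119 (229) over P2ry12 (217) to Sall1 (171), and from Olfml3 (54.9) over Gpr34 (38.7) and Fcrls (33.6) to P2ry13. In HD-Control, overlap was seen between P2ry12 and Sall1 and between Olfml3 (22.5) and Fcrls. In WT-Control, it was also seen between Siglech (593) and Fcrls (573) and between P2ry13 (400.02) and Sall1 (384).

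**Figure D3:**
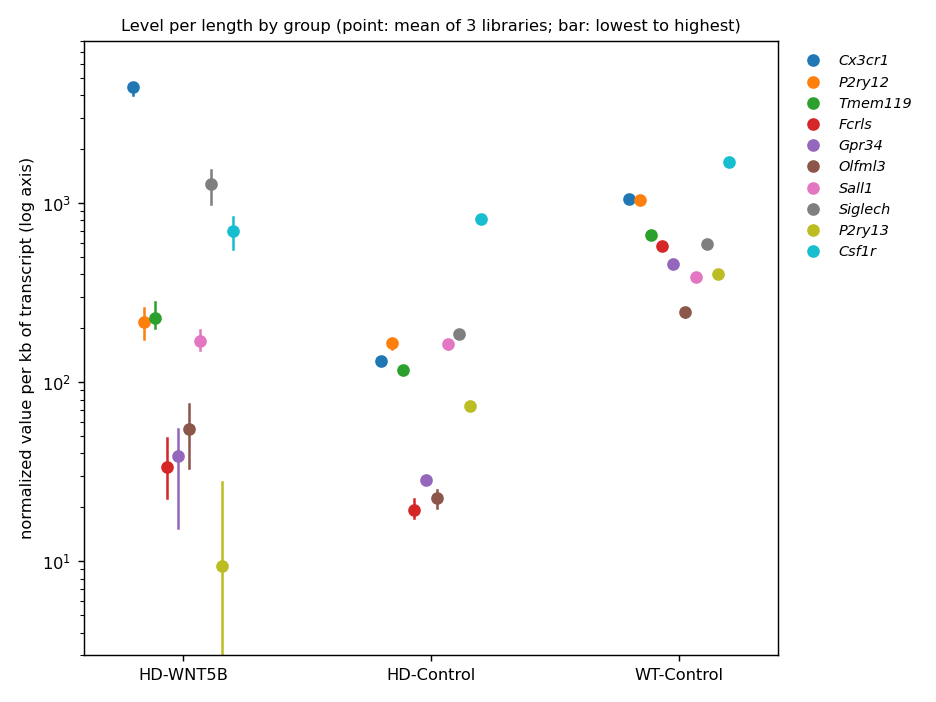
Normalized value per kb of the longest transcript (log axis) for the 10 members; points are means of 3 libraries and bars run from the lowest to the highest library. The bar of P2ry13 in HD-WNT5B runs on below the axis to 0, and Cx3cr1 stands at 4438 in HD-WNT5B, 131 in HD-Control and 1060.5 in WT-Control.

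Ratios and shares within a library do not depend on its scale. The trend on transcript length and GC content seen in HD-WNT5B does not cancel in them, and was not removed here. Cx3cr1 has 4.49 kb and 50.3% GC, P2ry12 2.34 kb and 38.6%, Siglech 2.30 kb and 45.5%, Tmem119 2.24 kb and 59.1%, and Csf1r 4.70 kb and 54.5%. Cx3cr1 to P2ry12 was 50.5, 34.9 and 35.4 in HD-WNT5B, against 1.46, 1.59 and 1.49 in HD-Control and 1.96, 2.02 and 1.90 in WT-Control. Siglech to Tmem119 was 5.59, 6.49 and 5.10 in HD-WNT5B, against 1.57, 1.68 and 1.67 in HD-Control and 0.923, 0.898 and 0.921 in WT-Control. Csf1r to P2ry12 was 6.41, 6.48 and 6.44 in HD-WNT5B, against 9.23, 10.8 and 9.41 in HD-Control and 3.36, 3.39 and 3.16 in WT-Control, so it was nearly level over HD-WNT5B libraries whose Csf1r values were 2615 to 3935. For each of these 3 ratios the groups did not overlap. Cx3cr1 made up 68.8 to 70.9% of the members' summed value in HD-WNT5B, 8.35 to 8.96% in HD-Control and 19.1 to 19.4% in WT-Control. The sum of the other 9, which does depend on the scale, was 8196 to 9188 in HD-WNT5B, 6061 to 6284 in HD-Control and 19878 to 19992 in WT-Control. Per M of a library's summed value it was 103 to 109.7 in HD-WNT5B, 109 to 113 in HD-Control and 363 to 366 in WT-Control, so HD-WNT5B and HD-Control overlapped there and both lay below WT-Control.

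Of the genes that share the span of Cx3cr1, Gorasp1, a Golgi stacking protein, and Csrnp1, a nuclear protein, rose in HD-WNT5B against HD-Control by 1.21 and 0.54 (limma adjusted p = 3.2e-06 and 0.003). Ttc21a fell by 0.90 (0.0122), Wdr48, a cofactor of deubiquitinases, gave -0.18 (0.123), and Xirp1 was listed at 0 in every HD-WNT5B library. The difference of Cx3cr1 was 5.07. Cask, the scaffold kinase around Gpr34, fell by 0.40 (1.2e-04).

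The ligands of the members took other courses. Cx3cl1, the membrane-bound chemokine that neurons present to CX3CR1, had 19806, 19169 and 23027 in HD-WNT5B, against 37713, 37491 and 37662 in HD-Control and 57034, 56709 and 56063 in WT-Control. It fell by 0.87 in HD-WNT5B against HD-Control (limma adjusted p = 1.6e-06) and by 0.59 in HD-Control against WT-Control (1.0e-04), so ligand and receptor moved in opposite directions between the HD groups. The ratio of Cx3cr1 to Cx3cl1 was 1.04, 1.10 and 0.784 in HD-WNT5B, against 0.0157, 0.0153 and 0.0158 in HD-Control and 0.0829, 0.0844 and 0.0853 in WT-Control. Of the CSF1R ligands, Csf1 fell by 0.66 (7.2e-04) to 820.5 ± 130 in HD-WNT5B, against 1284 ± 17.5 in HD-Control, and Il34 rose by 0.41 (0.0146) to 2619 ± 519, against 1944 ± 79.4. Tgfb3 fell by 1.75 (0.00187), Tgfb1 (-0.30) and Tgfb2 (-0.32) were not called (0.498 and 0.253). Itgav and Itgb8, the integrin chains that together activate latent TGF-beta, parted: Itgav rose by 1.33 (1.2e-07) and Itgb8 fell by 2.30 (4.0e-04). In all, 2 of 9 ligand and activator genes rose, 4 fell and 3 were not called (median -0.32), where 35.8% of all tested genes rose and 41.7% fell, and with equal totals or upper-quartile factors 1 rose.

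Of 18 partners, signalling proteins and transcription factors of the members, 4 rose in HD-WNT5B against HD-Control, 10 fell and 4 were not called (median -0.71, beside -0.23 for all genes). The share of partners called was near the 77.5% of all tested genes, 35.8% of which rose and 41.7% fell. Smad3, the TGF-beta effector, fell by 2.21 (limma adjusted p = 7.6e-10) to 1215 ± 55.3 in HD-WNT5B, against 5627 ± 101 in HD-Control and 5057 ± 54.6 in WT-Control. The receptor genes Tgfbr1 and Tgfbr2 fell by 0.97 and 2.51 (0.00266 and 1.7e-05) and the transcription factor gene Mef2a by 1.49 (1.9e-08). Spi1, which encodes PU.1, had 48.3, 73.9 and 105.1 in HD-WNT5B, against 140.3, 134.9 and 151.4 in HD-Control and 204.1, 179.3 and 197 in WT-Control, and fell by 0.95 (0.0136). Irf8, its partner factor, gave 0.31 (0.0564), and Tyrobp, the adaptor of Siglech, -0.003 (0.987) with 667, 464 and 444 in HD-WNT5B, against 516, 532 and 505 in HD-Control. Hcst, the adaptor DAP10, rose by 4.82 (3.7e-06) to 338 ± 106 in HD-WNT5B, against 9.39 ± 5.23 in HD-Control, and the microglial potassium channel Kcnk13, which sets the resting potential and surveillance, by 0.98 (0.0014). In HD-Control against WT-Control 4 rose, 5 fell and 9 were not called, where 24.5% of all genes rose and 20.7% fell, with Kcnk13 at 263 ± 18.7 in HD-Control, against 747 ± 12.1 in WT-Control (3.2e-04). There, 8 rose and 9 fell in a fit of the 6 libraries compared, where 43.5% of all genes rose and 40.2% fell, and 2 rose without any 1 of HD-Control libraries 1 to 3 or WT-Control libraries 1 and 2, while 3 fell without any 1 of the 6.

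Of 14 other purinergic genes, 6 rose, 3 fell and 5 were not called in HD-WNT5B against HD-Control (median 0.14), where 35.8% of all tested genes rose and 41.7% fell. Without HD-WNT5B library 3, 5 fell, and with equal totals or upper-quartile factors 7 fell. P2rx4, an ATP-gated channel of microglia, rose by 2.71 (limma adjusted p = 6.9e-08) to 2171 ± 276, against 327 ± 20.7 in HD-Control and 628 ± 29.3 in WT-Control. P2ry6, the UDP receptor that triggers phagocytosis, rose by 2.36 (1.9e-05), with 608, 382 and 412 in HD-WNT5B, against 89.3, 79.6 and 92.3 in HD-Control. Nt5e, the enzyme CD73 that makes adenosine from AMP, fell by 3.21 (1.3e-07), and Entpd1, the ectonucleotidase CD39 that breaks down ATP and ADP, gave -0.18 (0.221) and was lower than in WT-Control in both HD groups, by 1.54 in HD-WNT5B (4.7e-06) and 1.36 in HD-Control (5.5e-05). The P2ry1 and P2ry14 genes, relatives of P2ry12, were not called (-0.37 and -0.59, adjusted p = 0.13 and 0.197).

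A further 20 genes of resident microglia were set beside the members. In HD-Control against WT-Control, 14 fell and 6 were not called (median -0.77), where 20.7% of all tested genes fell, 40.2% in the fit of 6 libraries. All 20 differences were below 0, as were 48.4% of those of all genes. In HD-WNT5B against HD-Control, 7 rose, 6 fell and 7 were not called (median 0.17), where 35.8% of all genes rose and 41.7% fell, and with equal totals 11 fell. Ltc4s, leukotriene C4 synthase, had 1204, 1404 and 1224 in HD-WNT5B, against 86.9, 67.8 and 86.8 in HD-Control and 125.3, 101.8 and 98.5 in WT-Control, and rose by 3.94 (limma adjusted p = 1.2e-07). Like Cx3cr1 and Siglech it stood above WT-Control, as did Lag3, an MHC class II-binding receptor, at 1607 ± 312 in HD-WNT5B, against 254.5 ± 10.7 in HD-Control and 591 ± 45.3 in WT-Control (2.63, adjusted p = 4.3e-07), and Bin1, a membrane-bending protein that neurons and oligodendrocytes also make (2.98, 8.3e-11). Slc2a5, the fructose transporter of microglia, rose by 2.90 (8.2e-05) to 166 ± 76.7 in HD-WNT5B, against 17.9 ± 3.42 in HD-Control, and remained below the 389 ± 13.9 of WT-Control. Mertk, a receptor for dying cells that astrocytes also carry, and Rnase4 fell by 2.52 and 1.48 (6.3e-05 and 8.5e-06). Upk1b, among the 6 that fell, was listed at 0 in all HD-WNT5B libraries, and its HD-Control values were near the floor.

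Of 22 genes that microglia share with other macrophages, 7 rose, 5 fell and 10 were not called in HD-WNT5B against HD-Control (median 0.09). The called genes were thus 12 of 22, against 77.5% of all tested genes, of which 35.8% rose and 41.7% fell. Without HD-WNT5B library 1, 11 rose, and without library 2, 8 fell. With equal totals 11 fell, with upper-quartile factors 9, and in a fit of the 6 libraries compared 3. Aif1, which encodes the microglial stain IBA1, had 1796, 2075 and 1915 in HD-WNT5B, against 63.0, 78.2 and 78.2 in HD-Control and 361, 304.5 and 337 in WT-Control (4.67, limma adjusted p = 1.1e-08). The complement genes C1qa and C1qb, which lie side by side with C1qc, rose by 2.26 and 1.32 (2.1e-09 and 2.0e-08), while C1qc, whose product joins theirs in the C1q molecule, gave 0.16 (0.104) with 2590, 3233 and 2781 in HD-WNT5B, against 2568, 2515 and 2586 in HD-Control. Ptprc (CD45) had 0, 0 and 60.0 in HD-WNT5B, against 187, 200 and 178.5 in HD-Control, and Cd53 had 0, 1.6 and 107 against 322, 367 and 375.5. Both fell, by 4.53 and 4.96 (0.00358 and 0.00391), in a pattern of scattered reads like that of P2ry13. Itgam (CD11b) had 146, 253 and 19.3 in HD-WNT5B, against 207, 227 and 222 in HD-Control and 2077, 2025 and 2072 in WT-Control, and fell by 3.22 in HD-Control against WT-Control (0.00826).

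Among disease-associated microglia genes, 9 of the 19 tested rose, 5 fell and 5 were not called in HD-WNT5B against HD-Control (median 0.58), where 35.8% of all tested genes rose and 41.7% fell. In HD-Control against WT-Control 5 rose, 2 fell and 12 were not called (median 0.15), where 24.5% of all genes rose and 20.7% fell. The count in HD-Control against WT-Control moved: 9 rose without HD-WNT5B library 1, 6 fell without HD-WNT5B library 2, and 1 fell without any 1 of the 6 HD-Control and WT-Control libraries. In a fit of those 6 libraries, 9 rose and 8 fell, where 43.5% of all genes rose and 40.2% fell. Trem2, the lipid receptor that drives this state in mouse models, had 1082, 1007 and 1319 in HD-WNT5B, against 390, 423 and 455 in HD-Control and 791, 725 and 766 in WT-Control (1.41, limma adjusted p = 8.1e-06). Lpl, lipoprotein lipase, rose by 3.13 and Apoe by 1.36 (5.0e-09 and 2.7e-08), which other brain cells also make. Spp1 and Axl fell by 2.32 and 0.71 (0.00472 and 6.7e-04), and Cst7 and Itgax were not called (0.58 and -1.11, adjusted p = 0.652 and 0.336).

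Markers of other cells moved alongside. Of 16 genes of border macrophages and monocytes, 6 were listed at 0 in all HD-WNT5B libraries, among them Cbr2, Ly6c2, Plac8 and the genes Mrc1 and Ccr2, which define border macrophages and monocytes. On the same list, Pf4 and Cd163 rose in HD-WNT5B against HD-Control by 3.29 and 1.45 (limma adjusted p = 2.0e-04 and 7.2e-04). Both also stood above WT-Control, by 1.83 and 1.68 (0.00653 and 2.8e-04). The summed value of the 16 was 1749 to 2146 in HD-WNT5B, 852 to 981 in HD-Control and 391.9 to 408.6 in WT-Control. Of the 11 tested in HD-WNT5B against HD-Control, 4 rose, 5 fell and 2 were not called, where 35.8% of all tested genes rose and 41.7% fell. Among the 5 are Cbr2 and Ccr2, which fell by 1.21 and 1.68 to 0 from low HD-Control values, near the floor. Without any 1 WT-Control library 3 fell, as genes that reach the filter value only in WT-Control are then not tested. S100a8, a neutrophil and monocyte calcium-binding protein, had 762, 604 and 703 in HD-WNT5B, against 299, 243 and 281 in HD-Control and 1.41, 2.42 and 2.19 in WT-Control. The summed oligodendrocyte markers were 739786 to 784917 in HD-WNT5B, 329506 to 332027 in HD-Control and 452373 to 456963 in WT-Control. The summed astrocyte markers were 70288 to 74916, 159275 to 160769 and 268502 to 273089 in the same order of groups, the neuron markers 81502 to 90066, 188734 to 188940 and 213927 to 215772, the striatal projection neuron markers 194578 to 210460, 250318 to 254822 and 259126 to 264224, and the endothelium and pericyte markers 38713 to 46781, 12254 to 12538 and 17327 to 17672. These sums rest on the genes with the highest values. Gene by gene, 4 of 6 oligodendrocyte markers rose and 2 fell in HD-WNT5B against HD-Control (median 0.66), 1 of 6 astrocyte markers rose and 4 fell (-0.94), 3 of 6 neuron markers rose and 3 fell (-0.55), and 2 of 6 striatal projection neuron markers rose and 3 fell (-0.04). Of the 6 endothelium and pericyte markers (median -0.11), the endothelial genes Cldn5, Flt1 and Kdr rose by 4.10, 1.79 and 0.64. Pecam1, also endothelial, fell by 0.86, and Rgs5 and Pdgfrb fell by 1.93 and 1.87. The neuron markers that rose were Rbfox3, Stmn2 and Nefl, by 0.71, 0.45 and 0.25. Those that fell were Syt1, Tubb3 and Snap25, by 2.71, 2.50 and 1.35. The part of these cells in the members' differences was not tested.

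**Figure D4:**
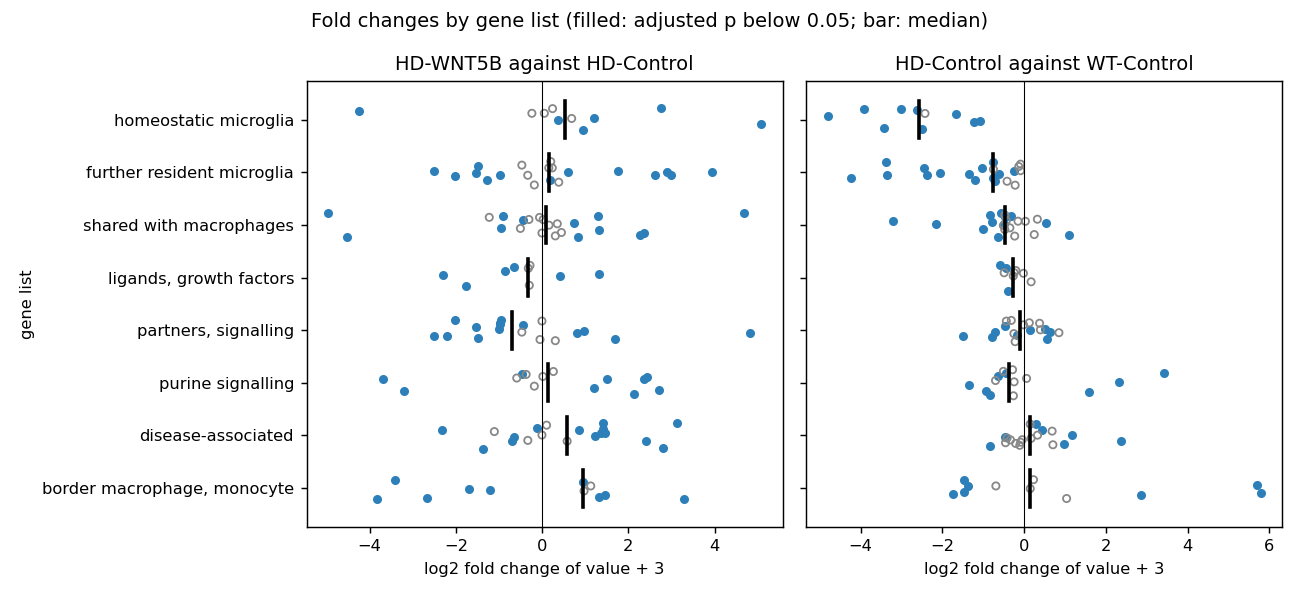
Log2 fold change of the value plus 3 for each tested gene of 8 lists in HD-WNT5B against HD-Control (left) and HD-Control against WT-Control (right); filled points passed an adjusted p of 0.05 and bars are medians. The homeostatic microglia genes have their median at 0.53 on the left and -2.57 on the right, and every list on the left has called genes on both sides of 0.

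Across the 9 libraries, the genes whose log2 values followed the mean of the members most closely were, out of 13071 with a mean of at least 100, Rcn1 (Pearson r = 0.996), Slco2b1 (0.995), Nefl (0.994), Rubcn and Usp10 (both 0.993), Cops7a (0.992), Zfp983 and Cryab (both 0.991). The 9 points share 3 group means, so r describes the order and spacing of the groups. Rcn1, a calcium-binding protein of the endoplasmic reticulum, had 1388 ± 285 in HD-WNT5B, 818 ± 31.9 in HD-Control and 4059 ± 114 in WT-Control. Slco2b1, an organic anion transporter of microglia and endothelium that is also on the list of resident microglia genes, had 794 ± 21.97 in HD-WNT5B, 698 ± 7.76 in HD-Control and 1437 ± 7.67 in WT-Control. Nefl, the neurofilament light chain of neurons, had 8772 ± 455, 7345 ± 140 and 19804 ± 218 in the same order of groups.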

How the data were processed

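Poly(A) RNA of 9 mouse brain libraries was sequenced, 3 each of HD-WNT5B, HD-Control and WT-Control. Reads were aligned with STAR to mm10, per the submitters' processing notes. The authors deposited 1 normalized signal value per gene and library, treated here as read counts divided by 1 factor per library, because 96.1 to 98.7% of low values were whole multiples of a step per library (tolerance 0.02). Dividing by that step gave about 37.3 to 52.1 M reads in HD-WNT5B, 69.8 to 90.6 M in HD-Control and 67.8 to 77.8 M in WT-Control. Because part of the values did not come out whole, these and other read numbers are estimates. The sources used here name neither the counting nor the normalizing program. All 21853 identifiers matched GENCODE M21, which supplied symbols, positions and lengths (longest transcript). The 15411 genes that reached 10 in 3 or more libraries were tested with limma 3.58.1 in R 4.3.3 on log2(value + 3), with group means over all 9 libraries (6 residual degrees of freedom), a variance trend and Benjamini-Hochberg adjustment, called at 0.05. The added 3 shrinks changes of low genes. The script was tested on simulated data with changes planted in HD-Control only. Only HD-Control against WT-Control was scored there, so that test does not cover the comparisons with HD-WNT5B. The 21 alternatives covered scale, filter, added constant, weights, samples fitted, a replicate block, each library left out and, chosen after seeing the data, removal of the length and GC trend. All 10 members were named whatever their values, with overlapping genes, the 8 most alike genes, and up to 6 genes with the smallest p or uncalled examples per list. Members and lists were chosen with earlier results of these data known. Clec7a was not used here, and some list genes are not reported here.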

Additional observations from a re-analysis of the deposited data

How the results depend on the processing

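Of 630 refitted fold changes of the members, 593 kept their direction and side of the threshold, 15 lost their call, 14 gained one and 8 reversed. All 8 reversals were in HD-WNT5B against HD-Control: P2ry12 (-0.19), Gpr34 (-0.28) and Sall1 (-0.50) with equal totals, P2ry12 (-0.016), Gpr34 (-0.12) and Sall1 (-0.33) with upper-quartile factors, and Gpr34 and Sall1 without HD-WNT5B replicate 3, where leaving out 1 library gave -0.084 to 0.78 and -0.050 to 0.13. There, 3 members rose and 3 fell with equal totals, and 3 fell with upper-quartile factors. Leaving out 1 library gave 4 to 6 higher and 1 to 2 lower members. In HD-Control against WT-Control, 9 to 10 members fell in every setting. Over all genes of that comparison, 6635 rose and 6144 fell with a weight per group, 6710 and 6198 in a fit of its 6 libraries, and 6745 and 6206 with weights and the length and GC trend removed, against 3774 and 3183. Leaving out 1 library gave 2925 to 4766 higher and 2416 to 4183 lower. The replicate numbers do not pair the libraries: the 9 same-number correlations of deviations ran from -0.0782 to 0.0215, and 0 passed 0.1. With the replicate block, 5 members rose and 1 fell in HD-WNT5B against HD-Control, P2ry12 (adjusted p = 0.0752) losing and Fcrls (0.0496) gaining a call. The planned count model was not run, because a check of the deposited values did not accept them as whole reads, so read numbers are estimates. The depth limits P2ry13, where HD-WNT5B held an estimated 39, 1 and 0 reads.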
